A study of Mus musculus with 4 samples.

Results

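The cytokine receptors through which growth factors reach mast cells were followed in mucosal mast cells of the mouse, with interleukin 18 (IL-18) stimulation and without it. The set is Kit, Il4ra and the receptor chains built around the beta common chain. Those chains are Csf2rb1 (now named Csf2rb), its neighbour gene Csf2rb2, and the alpha chains Csf2ra and Il3ra. A spot belonged to the set if the array's own gene name was one of 7 listed names, Csf2rb and Csf2rb1 being names of 1 gene, and 6 of the 7 names were found. This gave 17 spots on each array, which are 8 probes for 6 genes, out of 43379 gene spots and 41174 gene probes under 27962 gene names. All 8 probes were well above background in both channels on all 4 arrays, and all 8 were among the 24101 probes tested. None was marked as saturated by the scanner software, and saturation was not examined in any other way.

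The cells were differentiated in vitro into mucosal mast cells, and 4 biological replicates were made. Each array is 1 replicate and carries the IL-18 stimulated sample in the Cy5 channel and its own unstimulated sample in the Cy3 channel. The dyes were never exchanged, so an effect of IL-18 and a difference between the dyes at a probe cannot be told apart in these data. The sources used here give no dose, duration, mouse strain or growth factors of the culture. Replicates 1 and 2 lie on one slide and replicates 3 and 4 on another. These are bulk RNA samples, in which fewer cells of a type and less RNA per cell cannot be told apart.

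Kit is the receptor tyrosine kinase for stem cell factor (Kitl), on which mast cells depend for survival and growth. The receptors for IL-3, IL-5 and GM-CSF each pair an alpha chain of their own with the beta common chain, which signals through Jak2 and Stat5 and supports mast cell growth in culture. Mice carry a second, closely similar chain, encoded by Csf2rb2, which serves IL-3 only. Il4ra binds IL-4 and, with its partner chains, signals through Stat6 and Janus kinases, among them Jak1 and Tyk2.

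After correction for the dyes and for brightness (loess), the ratio of stimulated over unstimulated cells was below 1 for Il4ra. It was also below 1 for both Csf2rb1 probes designed on the reference transcript. It was above 1 for the Csf2rb1 probe designed on a cDNA clone and for Csf2rb2. These last 2 probes lay at a mean log2 intensity of 16 to 17. There the median log2 ratio of 144 probes was still 0.50 after loess. Kit, Csf2ra and Il3ra did not pass the test. In counts, 5 of the 8 probes passed limma's adjusted p of 0.05, 2 of them higher and 3 lower, and 3 did not pass. Over all 24101 tested probes 34.2% passed, 18.1% higher and 16.1% lower, so a call is common on these arrays. That share is not matched for brightness, and the 8 probes lay at percentiles 76.7 to 99.9 of intensity. Tested probes were also grouped in steps of 1 in mean log2 intensity. In the steps holding the 8 probes, 20.7% to 78.5% were called higher and 6.25% to 30.4% lower. The median log2 ratio of the 8 probes, stimulated over unstimulated, was 0.08, beside 0.02 over all tested probes. The SD over the 4 arrays ranged from 0.05 to 0.28 among the 8 probes, and its median over all tested probes was 0.10.

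**Figure D1:**
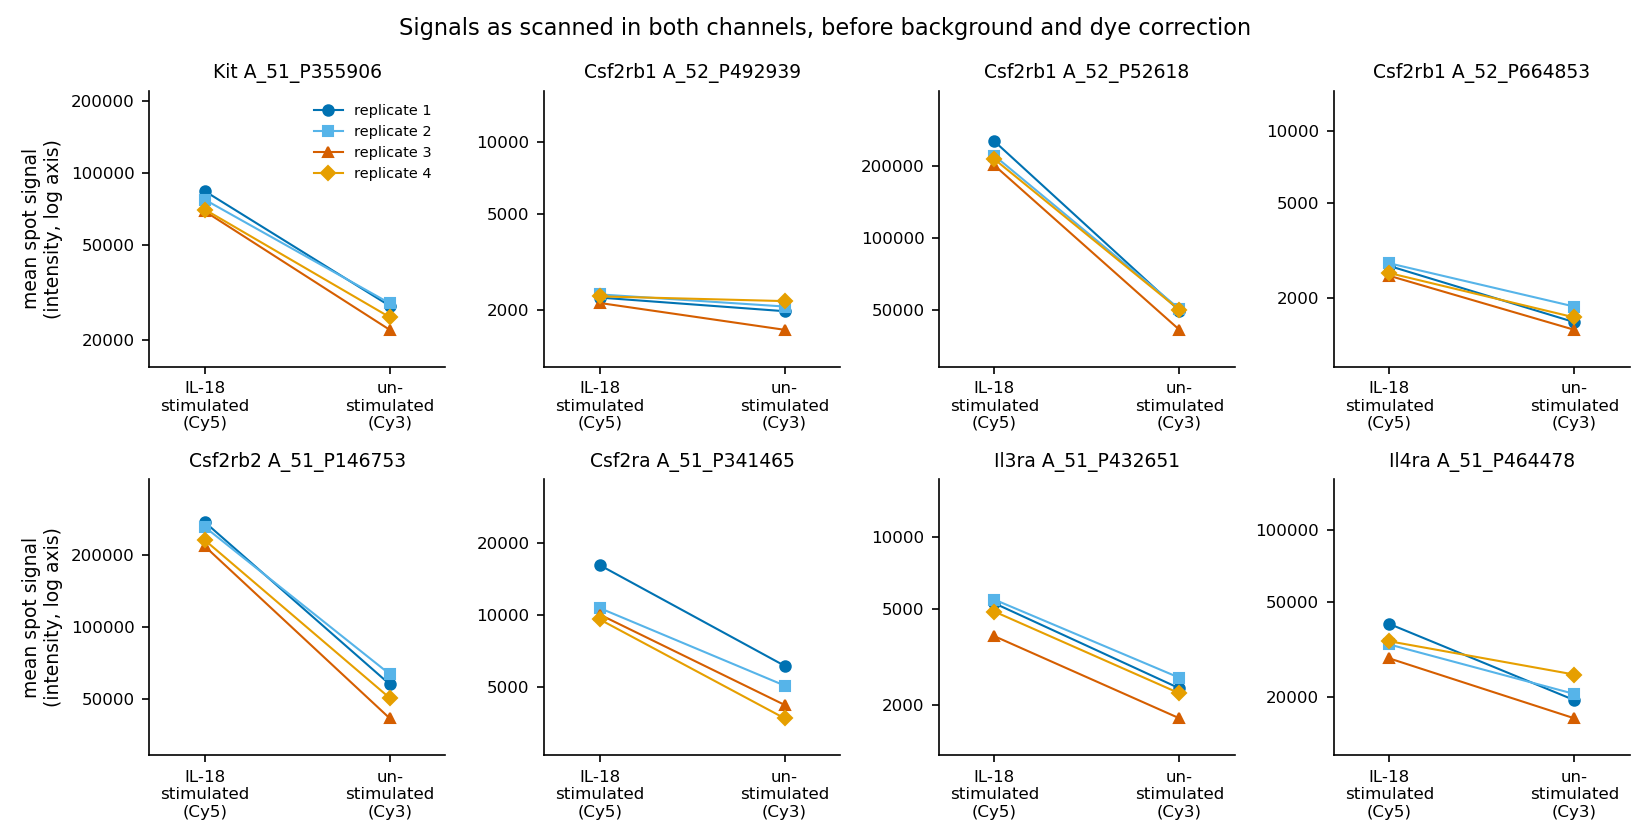
Mean spot signal (intensity as scanned, log axis) of each receptor probe in the IL-18 stimulated channel (Cy5, left) and the unstimulated channel (Cy3, right), 1 line per array. The lines of Csf2rb1 probe A_52_P492939 are nearly flat, with signals of 2132 to 2315 (Cy5) and 1647 to 2170.3 (Cy3), while those of most other probes drop steeply toward Cy3.

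**Figure D2:**
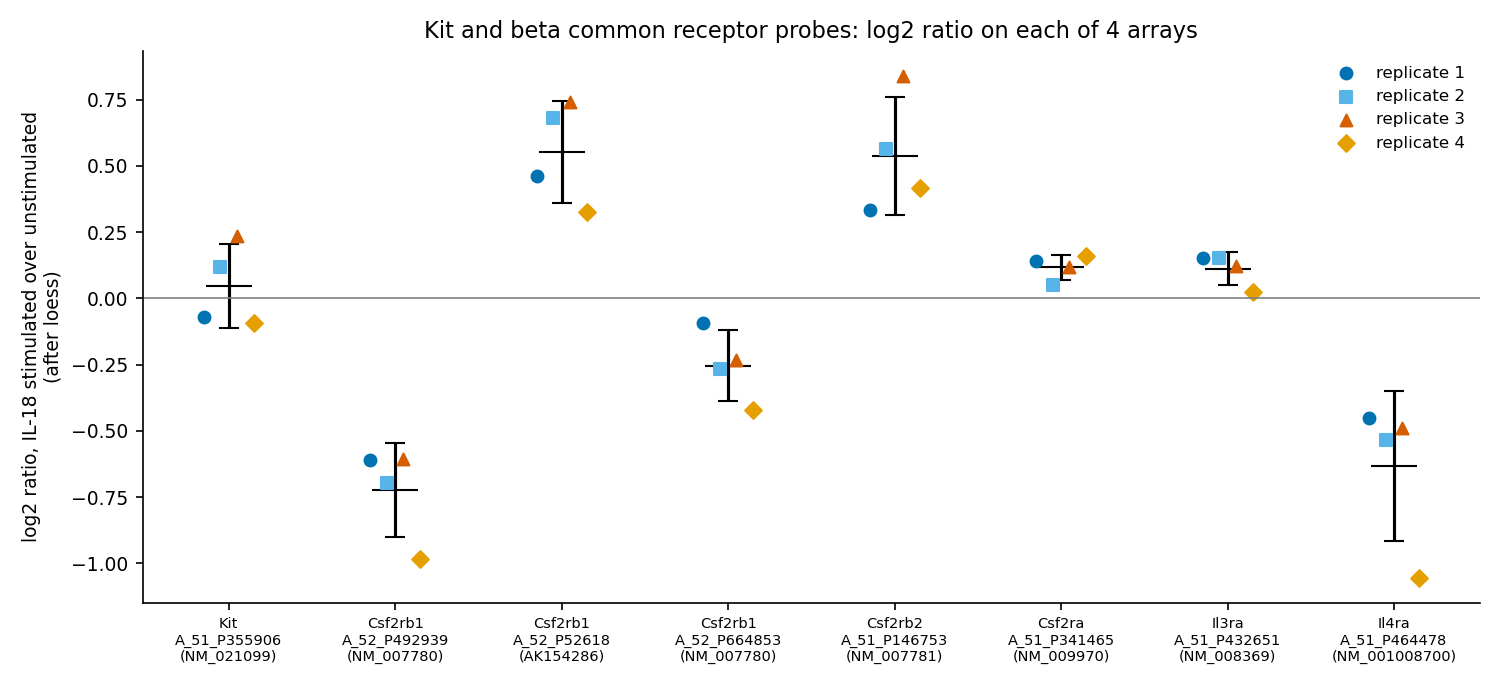
Log2 ratio, IL-18 stimulated over unstimulated, of each receptor probe on each of the 4 arrays after loess, with the mean (line) and SD (bars, n = 4). Il4ra and Csf2rb1 probes A_52_P492939 and A_52_P664853 lie below 0 on 4 of 4 arrays, and Csf2rb1 probe A_52_P52618 and Csf2rb2 above 0 on 4 of 4.

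The promoters of Csf2rb2, Il4ra and Kit are shown because these genes gave 1 higher call, 1 lower call and no call. Each runs from 250 bases before to 50 bases after the gene's start in RefSeq's GRCm38.p6 annotation. Csf2rb2 is at chr15:78305672-78305971 on the minus strand, Il4ra at chr7:125552021-125552320 and Kit at chr5:75574737-75575036, both on the plus strand. Capitals mark matches, on either strand, to a GATA motif (AGATAA or TGATAA), a STAT5 motif (TTCNNNGAA), a STAT6 motif (TTC and GAA with any 4 bases between), an NF-kB motif (GGGA and CC with any 4 bases between) or an ETS motif (GAGGAA).
Csf2rb2: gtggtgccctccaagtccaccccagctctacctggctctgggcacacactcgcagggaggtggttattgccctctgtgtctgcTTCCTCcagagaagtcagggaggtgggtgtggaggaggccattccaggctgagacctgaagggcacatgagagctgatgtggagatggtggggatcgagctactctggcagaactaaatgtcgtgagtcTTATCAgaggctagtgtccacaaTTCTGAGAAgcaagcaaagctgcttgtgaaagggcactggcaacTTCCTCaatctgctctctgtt
Il4ra: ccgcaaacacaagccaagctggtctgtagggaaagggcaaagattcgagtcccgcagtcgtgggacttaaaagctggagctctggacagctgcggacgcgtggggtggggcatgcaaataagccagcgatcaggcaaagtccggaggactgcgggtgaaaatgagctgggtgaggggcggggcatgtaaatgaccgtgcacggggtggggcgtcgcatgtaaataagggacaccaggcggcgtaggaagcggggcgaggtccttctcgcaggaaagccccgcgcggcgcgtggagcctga
Kit: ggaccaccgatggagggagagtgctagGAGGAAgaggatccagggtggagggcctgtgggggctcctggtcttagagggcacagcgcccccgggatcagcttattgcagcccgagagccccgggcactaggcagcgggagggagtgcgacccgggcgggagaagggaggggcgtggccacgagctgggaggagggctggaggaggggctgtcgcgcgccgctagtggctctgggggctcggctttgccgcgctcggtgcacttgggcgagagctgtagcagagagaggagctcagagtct
The Csf2rb2 promoter held 1 match to the GATA motif, 1 to the STAT5 motif and 2 to the ETS motif, which did not overlap one another. The Kit promoter held 1 match to the ETS motif, and the Il4ra promoter held 0 matches to any of them. Among 27025 mouse promoters of the same length, 19.0% held the GATA motif, 8.47% the STAT5 motif, 6.99% the STAT6 motif, 20.5% the NF-kB motif and 28.3% the ETS motif. The promoters of Csf2ra (2 matches to the ETS motif) and Il3ra (0 matches) were searched too, so that 5 of the 6 genes were matched by symbol. A match describes these letters only.

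Kit was read by probe A_51_P355906 (RefSeq transcript NM_021099, chromosome 5), which is printed 10 times on every array. Its mean signal in stimulated cells was 84179, 77546, 69358 and 70532 on replicates 1 to 4, against 27913, 28616, 22166 and 25034 in unstimulated cells. These signals are as scanned, and over all gene spots the mean signal was 2968 to 3737 in the stimulated channel and 1156 to 1385 in the unstimulated channel. After background correction (normexp) and loess, which fits each array's log2 ratio on brightness and subtracts the curve, the log2 ratio of Kit was -0.07, 0.12, 0.24 and -0.09. It lay above 0 on replicates 2 and 3 and below 0 on replicates 1 and 4, so the arrays did not share a direction after loess. Before loess the log2 ratio was 1.57, 1.43, 1.65 and 1.49, with an SD of 0.09. The loess curve at Kit's brightness stood at 1.65, 1.31, 1.41 and 1.59, so these signs rest on the curve subtracted from each array.

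The mean log2 ratio of Kit was 0.05 ± 0.16 (SD, n = 4), or 1.03-fold, with an adjusted p of 0.591 in limma. The 95% interval from limma reached from -0.11 to 0.21, which is 0.927-fold to 1.15-fold, so the 4 arrays do not settle whether Kit changed within that range. The mean was 0.02 on the slide of replicates 1 and 2 and 0.07 on that of replicates 3 and 4.

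The repeated printing separates the error of a spot from that of an array. The log2 ratios of Kit's spots within an array had an SD of 0.027 to 0.049, with a median of 0.039, while the 4 array means had an SD of 0.158. On replicate 1, the 9 spots used (1 was marked as an outlier by the scanner software) lay between -0.10 and -0.04, and on replicate 4 the 10 spots lay between -0.15 and -0.04. On replicate 2 they lay between 0.07 and 0.18, and on replicate 3 between 0.17 and 0.30. Each array's spots fell on one side of 0, and the spread between arrays was larger than that between spots. Kit's probe is 1 of 245 probes printed 10 times, of which 155 were tested, and by the size of its log2 ratio it ranked 37 from the smallest among those 155.

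**Figure D3:**
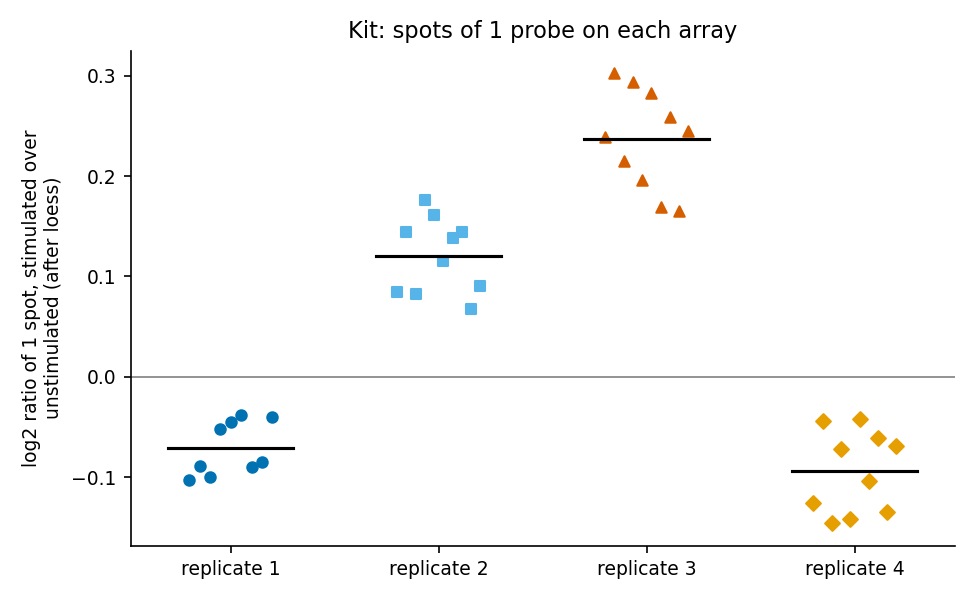
Log2 ratio of every usable Kit spot on each array (points), IL-18 stimulated over unstimulated after loess, with the array mean (line). The 9 spots of replicate 1 and 10 of replicate 4 lie below 0, and the 10 of replicate 2 and 10 of replicate 3 lie above it.

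The beta common chain gene Csf2rb1 (chromosome 15) had 3 probes, and they did not move together. Probe A_52_P492939, designed on the reference transcript NM_007780, had signals of 2245, 2315, 2132 and 2271 in stimulated cells on replicates 1 to 4, against 1969, 2059.9, 1647 and 2170.3 in unstimulated cells. Its log2 ratio was -0.61, -0.70, -0.60 and -0.98, below 0 on 4 of 4 arrays. It fell to 0.606-fold, with a mean of -0.72 ± 0.18 (SD, n = 4) and an adjusted p of 0.00168 in limma. This was the largest fall by mean log2 ratio among the 8 probes.

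Probe A_52_P664853, on the same transcript, had signals of 2729.9, 2801, 2484 and 2550.2 in stimulated cells, against 1590.2, 1847, 1477 and 1665 in unstimulated cells. Its log2 ratio was -0.09, -0.27, -0.23 and -0.42, again below 0 on all 4 arrays but nearer to it. The mean was -0.25 ± 0.13 (SD, n = 4), or 0.839-fold, with an adjusted p of 0.0210 in limma. That call was lost in the analysis of the 8 channels without the replicate block (adjusted p = 0.0617), without replicate 2 (adjusted p = 0.103) and without replicate 3 (adjusted p = 0.083), while the mean stayed between -0.26 and -0.25 there.

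Probe A_52_P52618 was designed on the clone AK154286, which the array's annotation describes as a full insert of the same gene from dendritic cells. Its signals in stimulated cells were 253820, 221090, 201350 and 213680, against 49807, 50624, 41420 and 50156 in unstimulated cells. This gave log2 ratios of 0.46, 0.68, 0.74 and 0.33, above 0 on 4 of 4 arrays. The mean was 0.55 ± 0.19 (SD, n = 4), or 1.47-fold, with an adjusted p of 0.00413 in limma.

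The difference between these probes was taken on each array. The clone's probe exceeded A_52_P492939 by 1.07, 1.38, 1.34 and 1.31 (log2), a mean of 1.28 ± 0.14 (SD, n = 4). It exceeded A_52_P664853 by 0.56, 0.95, 0.97 and 0.75, a mean of 0.81 ± 0.19. Even the pair on the reference transcript differed, with A_52_P664853 above A_52_P492939 by 0.52, 0.43, 0.37 and 0.56, a mean of 0.47 ± 0.09. Each difference had the same sign on 4 of 4 arrays and exceeded its SD, but the exact two-sided sign-flip permutation test over 4 arrays cannot go below p = 0.13, the value that each gave (Benjamini-Hochberg adjusted p = 0.15 over 6 differences). The direction of Csf2rb1 as a gene is therefore not settled by these arrays: 2 of its probes were called lower and 1 higher. The clone's probe was far brighter than the other 2. At its intensity the median log2 ratio of tested probes was 0.50 after loess, beside 0.02 at theirs. With the scanner software's own dye correction the clone's probe exceeded A_52_P492939 by 0.96 and A_52_P664853 by 0.47. The part of brightness in these differences was not tested.

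Csf2rb2, the mouse chain specific to IL-3, lies next to Csf2rb on chromosome 15 with 0 protein-coding genes between them in the RefSeq annotation of GRCm38.p6. Its probe A_51_P146753 (NM_007781) had signals of 274760, 262160, 217750 and 231040 in stimulated cells, against 57721, 63648, 41598 and 50591 in unstimulated cells. Its log2 ratio was 0.33, 0.56, 0.84 and 0.42, above 0 on 4 of 4 arrays. The mean was 0.54 ± 0.22 (SD, n = 4), or 1.45-fold, with an adjusted p of 0.00616 in limma.

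The clone's probe of Csf2rb1 minus that of Csf2rb2 gave 0.13, 0.12, -0.10 and -0.09, a mean of 0.01 ± 0.13 (SD, n = 4), with p = 0.75 in the exact sign-flip test. The other Csf2rb1 probes lay below Csf2rb2 on 4 of 4 arrays, by a mean of -1.26 ± 0.23 (A_52_P492939) and -0.79 ± 0.27 (A_52_P664853). Csf2rb1 and Csf2rb2 are closely similar genes. Whether the clone's probe also takes up RNA of Csf2rb2 was not tested, and probe sequences were not used here.

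The alpha chains showed small ratios that did not pass the test. Csf2ra, the chain that gives the GM-CSF receptor its specificity, was read by probe A_51_P341465 (NM_009970, chromosome 19). Its signals were 16130, 10668, 10024 and 9563 in stimulated cells, against 6121, 5060.5, 4201 and 3692 in unstimulated cells, and replicate 1 was the highest in both channels. The log2 ratio was 0.14, 0.05, 0.12 and 0.16, a mean of 0.12 ± 0.05 (SD, n = 4), or 1.09-fold. It lay above 0 on 4 of 4 arrays with an adjusted p of 0.0714 and an unadjusted p of 0.0287 in limma, and its 95% interval reached from 0.02 to 0.22. Csf2ra passed the threshold, higher, in 6 of 17 alternative analyses, with log2 ratios of 0.12 to 1.14 in those.

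Il3ra, the specific chain of the IL-3 receptor, was read by probe A_51_P432651 (NM_008369, chromosome 14). Its signals were 5302, 5492, 3863 and 4895 in stimulated cells, against 2339.7, 2590.5, 1754 and 2229.9 in unstimulated cells, with replicate 3 the lowest in both channels. Its log2 ratio was 0.15, 0.15, 0.12 and 0.02, a mean of 0.11 ± 0.06 (SD, n = 4), or 1.08-fold. It too lay above 0 on 4 of 4 arrays, with an adjusted p of 0.0907 and an unadjusted p of 0.0399 in limma, and a 95% interval from 0.01 to 0.22. It passed in 2 of 17 alternatives.

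Il4ra, the chain shared by the IL-4 and IL-13 receptors, was read by probe A_51_P464478 (NM_001008700, chromosome 7). Its signals were 40480, 33233, 29064 and 34275 in stimulated cells, against 19460, 20644, 16332 and 24878 in unstimulated cells. On replicates 1 to 4 the log2 ratio was -0.45, -0.53, -0.49 and -1.05, below 0 on 4 of 4 arrays, with replicate 4 the farthest from 0. Il4ra fell to 0.645-fold, with a mean of -0.63 ± 0.28 (SD, n = 4), a 95% interval from -0.88 to -0.39 and an adjusted p of 0.00683 in limma. Without replicate 4 the mean was -0.49 and still passed. The means were -0.49 and -0.77 on the slides of replicates 1 and 2 and of replicates 3 and 4.

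The signs of these falls rest on the correction of brightness. Before loess the mean log2 ratio of Il4ra was 0.76, and the loess curve stood at 1.39 at its brightness. For Csf2rb1 these values were 0.20 and 0.92 (A_52_P492939) and 0.67 and 0.92 (A_52_P664853). With the arrays only centred on their median, in place of loess, the log2 ratio of Il4ra was 0.63 (adjusted p = 0.0915), that of A_52_P492939 was 0.08 (adjusted p = 0.723) and that of A_52_P664853 was 0.55 (adjusted p = 0.0495, called higher), while 98.8% of all calls were then higher. A fall here means a ratio below that of probes of like brightness on the same array.

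Set against probes of like brightness, the members separated into those that stood apart and those that did not. Here brightness is the mean log2 intensity of both channels, in steps of 1. In Il4ra's step, 14 to 15, the median log2 ratio of 625 probes was -0.03, and 606 of the other 624 probes had a higher ratio than Il4ra. In the step 11 to 12 (2194 probes, median 0.02), 2138 of the other 2193 had a higher ratio than A_52_P492939, 1856 than A_52_P664853 and 708 than Il3ra. In the step 12 to 13 (1543 probes, median -0.03), 422 of the other 1542 had a higher ratio than Csf2ra.

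The probes at the top of the intensity range were different. In the step 16 to 17 the median log2 ratio of 144 probes was 0.50 even after loess, and 78.5% of them were called higher. The clone's probe of Csf2rb1 lay 0.05 above that median and Csf2rb2 lay 0.03 above it, and 62 and 65 of the other 143 probes had higher ratios than these. The median of the step was 0.35, 0.59, 0.56 and 0.48 on replicates 1 to 4, beside 0.46, 0.68, 0.74 and 0.33 for the clone's probe and 0.33, 0.56, 0.84 and 0.42 for Csf2rb2. Both probes were thus called higher without standing apart from probes as bright as they are.

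Kit lay in the step 15 to 16, where the median of 324 probes was 0.17 and 47.8% were called higher. Its ratio was 0.13 below that median, and 212 of the other 323 probes had a higher ratio. The median of the step was 0.08, 0.21, 0.22 and 0.17 on replicates 1 to 4, beside -0.07, 0.12, 0.24 and -0.09 for Kit. The part of this trend in the results of Kit, the clone's probe and Csf2rb2 was not tested, but the 3 corrections given next gave lower ratios for all of them. With the scanner software's own dye correction the clone's probe had a log2 ratio of 0.19 (adjusted p = 0.0839), Csf2rb2 0.11 (adjusted p = 0.254) and Kit -0.12 (adjusted p = 0.186). With a narrower loess span of 0.1 they had 0.32, 0.29 and -0.07, the Csf2rb1 and Csf2rb2 probes still being called higher, and with quantile normalization of the channels 0.07, 0.07 and -0.07, with none of these called.

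**Figure D4:**
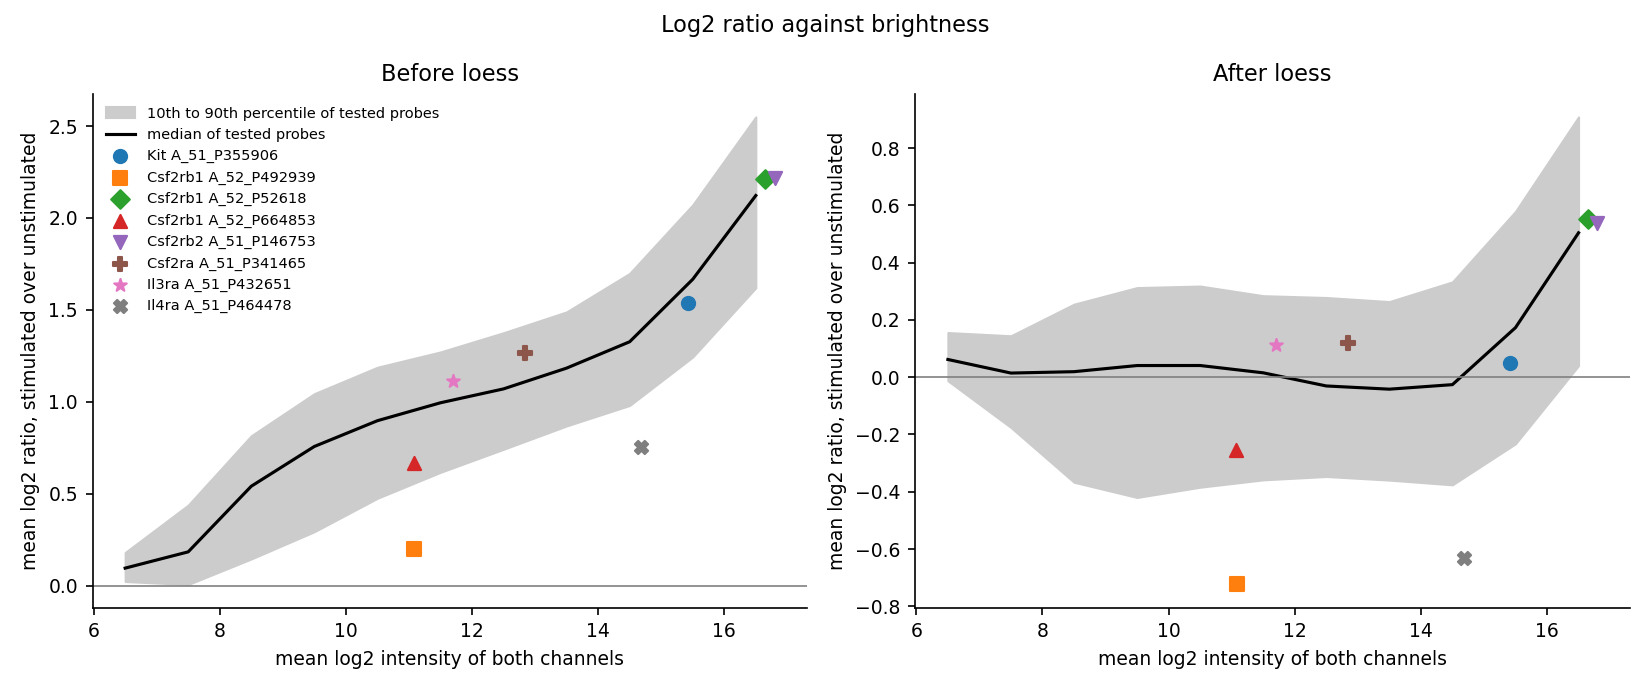
Mean log2 ratio, IL-18 stimulated over unstimulated, against mean log2 intensity of both channels, before (left) and after (right) loess, with the median and the 10th to 90th percentile of all tested probes by steps of 1 in intensity. After loess the median stays near 0 up to an intensity of 15 and reaches 0.17 and 0.50 in the steps above, where Kit, Csf2rb1 probe A_52_P52618 and Csf2rb2 lie, whereas Il4ra and Csf2rb1 probe A_52_P492939 lie below the band.

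The calls of Il4ra and of Csf2rb1 probe A_52_P492939 were the ones that most analyses kept: each was called lower in 15 of 17 alternatives, with adjusted p from 0.00157 to 0.227 for Il4ra and from 0.000381 to 0.723 for A_52_P492939. Probe A_52_P664853 was called lower in 12 of 17 and higher in 1. The clone's probe of Csf2rb1 and Csf2rb2 were each called higher in 13 of 17, with log2 ratios from 0.07 to 2.09 in all 17. Kit was called in 1 of 17, under median centring, with log2 ratios between -0.12 and 1.41. The 17 alternatives are not independent of one another. The scanner software's signals and the series table count separately but give nearly the same ratios, and the filter, eBayes and slide settings leave the ratios unchanged. Scale normalization across arrays ended every receptor call (0 higher and 0 lower in limma, with 2 probes at an unadjusted p under 0.05). Over all tested probes the calls were 1349 higher and 845 lower without replicate 2, and 1684 and 1237 without replicate 3.

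**Figure D5:**
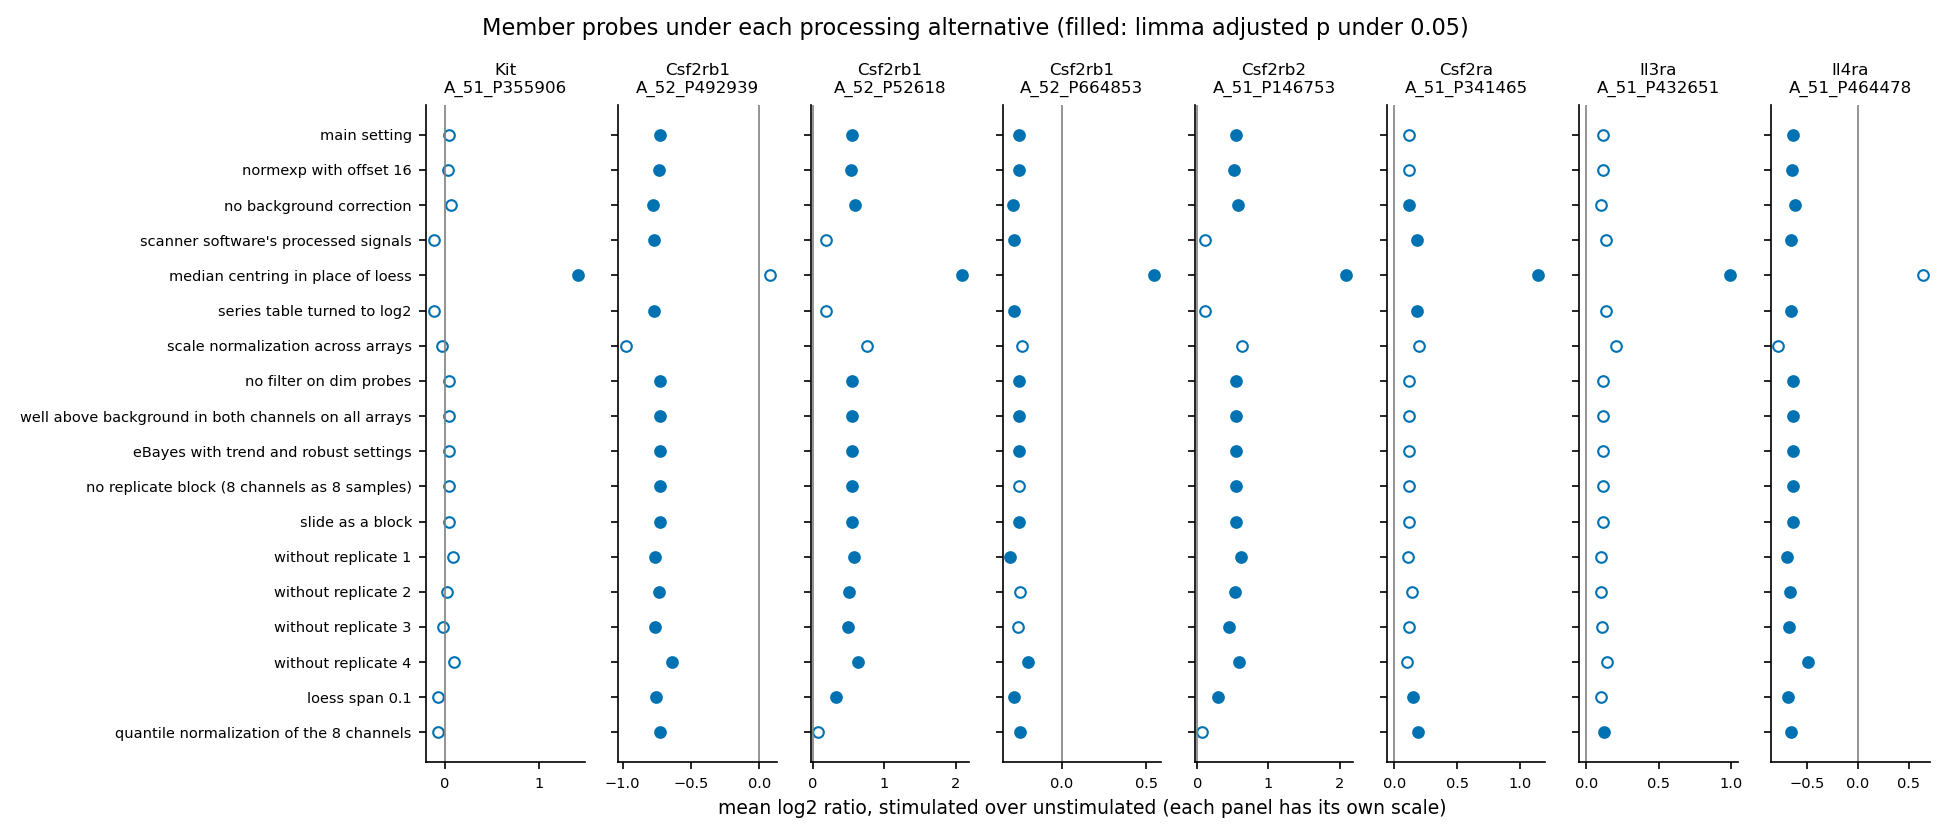
Mean log2 ratio, IL-18 stimulated over unstimulated, of each receptor probe under the reported analysis (top) and 17 alternatives, filled where limma's adjusted p is under 0.05. Median centring moves every probe to the right, and the scanner software's signals, the series table and quantile normalization bring Csf2rb1 probe A_52_P52618 and Csf2rb2 close to 0.

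The other genes of these receptors' pathways were taken from 7 lists by role, each gene by its brightest tested probe. Of 99 genes listed, 91 were tested, and 26 were higher, 22 lower and 43 not called. Those shares, 28.6% higher and 24.2% lower, stand beside 19.7% higher and 13.7% lower (33.4% in either direction) over 16969 tested genes. The 2 groups were not matched by brightness, with which the share called varied. In the intensity step 7 to 8, 5.67% of 8302 probes were called higher and 8.62% lower, and in the step 9 to 10, 27.5% and 19.1% of 3029. The median log2 ratio was -0.0049, beside 0.04 over all genes. Without replicate 2 the counts of pathway genes were 12 higher and 4 lower, and without replicate 3 they were 13 and 8.

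Among the ligands, 3 of 4 tested were higher. Il4, which signals through Il4ra, rose 1.5-fold, by 0.59 ± 0.08 (log2, SD, n = 4, adjusted p = 0.00112 in limma). Csf2, the gene of GM-CSF, had log2 ratios of 0.07, 0.71, 0.97 and 0.73 on replicates 1 to 4 and rose 1.54-fold (adjusted p = 0.0162), at mean signals of 140.4 in stimulated and 77.1 in unstimulated cells. The log2 ratio of Csf2 was 0.96 with a normexp offset of 16 and 3.17 with the scanner software's signals and with the series table, and the call was lost in 3 of 16 alternatives. Il13, which uses Il4ra as well, rose 1.13-fold (adjusted p = 0.0399), a call lost in 6 of 17 alternatives. Kitl, the ligand of Kit, had a log2 ratio of 0.01 ± 0.05 (adjusted p = 0.831), and Il3 and Il5 were not bright enough to be tested.

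Of the partner receptors 10 of 14 were tested. Crlf2, a chain of the TSLP receptor, rose by 0.22 ± 0.14 (1.17-fold, adjusted p = 0.0331 in limma) at an intensity of 15.8, in the range where the median ratio of bright probes was above 0. Its partner Il7r rose by 0.15 ± 0.08 (adjusted p = 0.0484). These calls were lost in 8 (Crlf2) and 12 (Il7r) of 17 alternatives. Il2rg, the gamma common chain that joins Il4ra in one form of the IL-4 receptor, fell by 0.36 ± 0.27 on the log2 scale (0.777-fold, adjusted p = 0.0308), below 0 on 4 of 4 arrays. The call of Il2rg was lost in 3 of 17 alternatives and its sign turned in 1.

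Il13ra1, which joins Il4ra in the other form of that receptor, had a log2 ratio of -0.04 ± 0.05. Il9r had -0.13 ± 0.12, Csf1r -0.16 ± 0.12, Epor -0.04 ± 0.08 and Il21r -0.06 ± 0.08. Il2rb, at 0.01 ± 0.05, lay on the other side of 0. None of these 6 passed, with adjusted p between 0.0639 and 0.884 in limma, although Csf1r was called lower in 7 of 17 alternatives, and Il5ra, Il13ra2, Csf3r and Flt3 were not tested.

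Among the Janus kinases and STAT factors 3 of 9 were higher and 2 lower. Jak2, which binds the beta common chain, rose 1.51-fold, by 0.60 ± 0.07 (adjusted p = 0.00101 in limma), although its other probe stood at -0.00091. Tyk2, a kinase of IL-4 and IL-13 receptor signalling, fell by 0.98 ± 0.42 on the log2 scale (0.509-fold, adjusted p = 0.00562), and Stat3, a factor better known for IL-6 and IL-10 signalling, fell by 0.53 ± 0.30 (adjusted p = 0.0132) with its other probe at 0.08. Jak1 (0.34 ± 0.12) and Stat5b (0.23 ± 0.09) were called higher by their brightest probe, but each had another probe called lower, at -0.32 for both.

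Of 30 tested kinases, adaptors and phosphatases 5 were higher and 9 lower. Ywhaz, a 14-3-3 protein, fell by 1.03 ± 0.19 on the log2 scale (0.490-fold, adjusted p = 0.000949 in limma), although its other tested probe stood at -0.01. Vav1, an exchange factor for Rac, fell by 0.74 ± 0.27 and the kinase Akt2 by 0.62 ± 0.41, each with both of its probes called lower. The call of Akt2 was lost in 3 of 17 alternatives and its sign turned in 1. Spry2, an inhibitor of growth factor signalling, rose by 0.34 ± 0.13 and the adaptor Shc1 by 0.21 ± 0.13. These 2 calls were lost in 1 (Spry2) and 4 (Shc1) of 17 alternatives. The phosphatase Ptpn11 rose by 0.22 ± 0.06 on its brightest probe, while 2 of its 3 probes were called lower.

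The feedback inhibitors had 4 of 9 higher and 1 lower. Cish, a gene that Stat5 induces, rose by 0.32 ± 0.14 (1.25-fold, adjusted p = 0.0110 in limma), Socs5 by 0.21 ± 0.07 and Socs2 by 0.18 ± 0.08. These calls were lost in 2 (Cish), 3 (Socs5) and 4 (Socs2) of 17 alternatives. Pias3, named as an inhibitor of Stat3, fell by 0.60 ± 0.40 on the log2 scale, at mean signals of 271.6 in stimulated and 296.9 in unstimulated cells. That call was lost in 4 of 17 alternatives. The other one called higher was Bcl6, a repressor, at 0.39 over 3 arrays, which the naming rule left out.

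Of 15 target and survival genes 5 were higher and 3 lower. The immediate-early genes Fos (1.28 ± 0.41, 2.42-fold), Junb (1.07 ± 0.21, 2.09-fold) and Egr1 (0.81 ± 0.23, 1.75-fold) rose on 4 of 4 arrays, with adjusted p from 0.000949 to 0.00219 in limma. The remaining ones that rose, named because the count is small, were the death gene Bcl2l11 (0.68) and, by its brightest probe, the survival gene Bcl2l1 (0.33), another probe of which was called lower at -0.35. Pim1, a kinase that Stat5 induces, fell by 0.66 ± 0.31 on its brightest probe with its other probe at 0.11, Ccnd3, a cyclin, by 0.44 ± 0.18, and the death gene Bad by 0.25 ± 0.19. Bad was dim, with mean signals of 202.9 in stimulated and 171.8 in unstimulated cells. Its call was lost in 6 of 17 alternatives and its sign turned in 1.

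Among 14 regulators known to act on genes of blood cell receptors, 4 were higher and 6 lower. Tal1 (0.52 ± 0.08), Ikzf1 (0.49 ± 0.09) and Ets1 (0.33 ± 0.09) rose, although 2 of the 4 Ets1 probes were called lower. Sfpi1, which encodes PU.1, fell by 0.57 ± 0.28 on the log2 scale, Cebpa by 0.51 ± 0.35 and Myb by 0.44 ± 0.22, while 1 of 4 Myb probes was called higher, at 0.46. Mean signals in stimulated and unstimulated cells were 200.8 and 233.1 for Sfpi1, and 145.0 and 175.5 for Cebpa. These calls were lost in 3 (Sfpi1) and 4 (Cebpa) of 17 alternatives. Over the 91 pathway genes, 49 had several tested probes, and 8 of these had probes called in opposite directions, as Csf2rb1 did. The share over all genes with several tested probes was 286 of 5222.

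The labelled cell type was checked against markers. The mast cell list was one of mast cells as a whole, so the mucosal type was not checked apart. All 16 mast cell genes found on the array were tested, among them Fcer1a, Cpa3, Mcpt1, Mcpt2 and Cma1. Of the 16, 7 were called higher and 3 lower (43.8% and 18.8%, beside 19.7% and 13.7% of all genes). The 3 called lower were Mcpt6 (-0.74), Mitf (-0.36) and Ctsg (-0.25). The 7 called higher had intensities of 15.7 to 17.2, the range in which the median ratio of all probes stayed above 0 after loess. Signals were also summed over all probes of each list on the array, tested or not, after subtracting the local background. Values below 0 were set to 0, and no dye correction was made. The mast cell sum was 2413700 to 2625700 in stimulated cells, against 565180 to 646220 in unstimulated cells. The T cell sum, over 13 probes of which 6 were tested, was 685 to 775 in stimulated and 796 to 917 in unstimulated cells. The B cell sum, over 10 probes of which 5 were tested, was 338 to 435 in stimulated and 529 to 622 in unstimulated cells. Of 3 basophil genes tested, 2 were called higher, Mcpt8 (0.41 ± 0.09, adjusted p = 0.00280 in limma) and Cd200r3 (0.24 ± 0.09), and the basophil sum was 48576 to 71679 in stimulated and 17946 to 19985 in unstimulated cells. Of 3 eosinophil genes, Ear1 was called higher (0.72 ± 0.16), and of 3 dendritic cell genes, Xcr1 was called higher (0.43 ± 0.30) and Itgax lower (-0.21 ± 0.07). None of the 6 T cell and 4 B cell genes tested was called (0), while 1 of 11 macrophage genes was called higher and 1 of 6 neutrophil genes lower. The macrophage sum, 153650 to 177990 in stimulated and 50485 to 61364 in unstimulated cells, came mostly from lysozyme. The part of other cell types in the receptor results was not tested.

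Over all gene spots, 57.9% to 62.7% were well above background in the stimulated channel and 49.9% to 54.0% in the unstimulated channel, and the log2 ratios of pairs of arrays had a Pearson r of 0.619 to 0.906 across probes, which are not independent. The genes nearest to Kit over the 4 arrays' log2 ratios, by Euclidean distance among 18660 candidates, were Cst7 (0.032), Proser1 (0.075) and Hspa8 (0.089). Those nearest to the clone's probe of Csf2rb1 were Rps3a1 (0.117), Ly6e (0.136) and Ctla2b (0.175). The 4 values that this likeness rests on come from the same arrays, and Hspa8, Rps3a1 and Ctla2b lie in the same range of high intensity as the probe they resemble.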

How the data were processed

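Total RNA of 4 pairs of samples, IL-18 stimulated and unstimulated mucosal mast cells, was labelled with Cy5 and Cy3 and each pair hybridised on 1 Agilent 2-colour array, per the labels. The spot and local background intensities used here are those deposited by the authors as scanned with Agilent Feature Extraction 9.1, per the file headers, without background or dye correction. The deposited log10 ratios, Cy5 over Cy3, were made by that software with background subtraction, detrending and a linear and lowess dye correction, per the file headers. They and the deposited series table, which differed from them by at most 0.00496 (log10) and runs in the same direction with column medians of 0, served as alternatives. Slide and scan numbers come from the file headers.

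Background was corrected with limma's normexp (offset 50), log2 ratios were normalized within arrays by loess, and spots of a probe were averaged, with control and outlier spots left out. Tested probes had at least 3 values and, in 1 channel, a signal well above background on at least 3 arrays. Mean ratios were tested against 0 with limma 3.58.1 (R 4.3.3) with Benjamini-Hochberg adjustment (24101 probes, threshold 0.05). The ratio within an array is the paired comparison, and the pairing is stated in the labels. The steps were tested on simulated data built on the fitted loess curves. Those data did not hold the trend that loess left at high intensity, so that test does not bear on it. P-values measure the spread between 4 biological replicates, and their number limits the precision.

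The receptors and the lists were chosen with earlier results of these data known. The text names every receptor probe, the tested ligands and partner receptors (1 of which is not reported here), up to 3 called rises and falls with 1 sign on all 4 arrays in each list, and the 3 genes nearest to Kit and to Csf2rb1. Gene names are the array's, updated where an accession matched a RefSeq table of GRCm38.p6 (22951 of 43379 gene spots). The files name no genome build. Promoters are RefSeq's, GRCm38.p6. The alternatives changed the background correction, dye correction, scaling, filter, test, pairing, slide and replicates.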

Additional observations from a re-analysis of the deposited data

Results flagged for a closer look

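Of 24 sets of 4 values looked at (the log2 ratio and the signal in each channel of 8 probes), 3 held a value that stood far from the other 3 by Dixon's test at the 95% level, which chance gives in about 5% of sets. The log2 ratio of Il4ra was -1.05 on replicate 4, against -0.53 to -0.45 on the others. The signal of Csf2ra in stimulated cells was 16130 on replicate 1, against 9563 to 10668 on the others, and its signal in unstimulated cells, 6121, was also the highest there. The signal of Csf2rb1 probe A_52_P52618 in unstimulated cells was 41420 on replicate 3, against 49807 to 50624 on the others.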

How the results depend on the processing

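Under normexp with an offset of 16, no filter on dim probes, a stricter filter, eBayes with trend and robust settings and the slide as a block, all 8 receptor probes kept their direction and side of the threshold. In the analysis without the replicate block (8 channels as 8 samples) this held for 7, the exception being Csf2rb1 probe A_52_P664853 (-0.25, adjusted p = 0.0617). Without background correction Csf2ra passed, at 0.12. With the scanner software's signals, Kit was at -0.118, Csf2rb1 probe A_52_P52618 at 0.190 and Csf2rb2 at 0.111, none called, Csf2ra passed at 0.184, and 1 receptor probe was higher. The series table gave the same to 2 decimals, -0.12, 0.19, 0.11 and 0.18, with 1 higher. In both, A_52_P52618 exceeded A_52_P492939 by 0.96 and A_52_P664853 by 0.47, and A_52_P492939 and A_52_P664853 minus Csf2rb2 were -0.88 and -0.39.

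Median centring in place of loess moved the median of all probes by 0.41. The log2 ratios were 1.41 for Kit, 1.14 for Csf2ra and 0.99 for Il3ra, all called higher, and 0.63 for Il4ra, 0.078 for A_52_P492939 and 0.55 for A_52_P664853, which turned their sign. Then 6 receptor probes were higher and 0 lower, 13971 and 176 of all probes (98.8% of calls higher, beside 53.0%), and 68 and 0 pathway genes, with a median of 0.76. The probe differences were 2.01, 1.54, -2.02 and -1.55. Among pathway genes Akt2 (0.20), Bad (0.019), Ccnd3 (0.55), Epor (0.46), Il2rg (0.46), Myb (0.63), Pim1 (0.042), Stat3 (0.49) and Vav1 (0.24) turned their sign, as did Csf1r (0.12), Il9r (0.23) and Il21r (0.11), which were not called in either analysis. After loess, which this setting leaves out, the median log2 ratio was still 0.17 and 0.50 in the intensity steps 15 to 16 and 16 to 17.

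Scale normalization across arrays ended all calls: 0 receptor probes higher and 0 lower, 0 and 0 of all probes, 0 and 0 pathway genes by limma, with 2, 5872 and 22 at an unadjusted p under 0.05. The log2 ratios were -0.026 (Kit), -0.98 (A_52_P492939), 0.75 (A_52_P52618), -0.24 (A_52_P664853), 0.63 (Csf2rb2) and -0.78 (Il4ra), and the probe differences 1.73, 0.74 and -1.61. It stretches replicate 1, whose median size of log2 ratio over gene spots was 0.016, beside 0.093 to 0.117 on the others.

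Of settings chosen after seeing the data, a loess span of 0.1 gave Kit -0.075 and Csf2ra 0.15 (called), and differences of 1.07 and 0.60. Quantile normalization gave Kit -0.074, A_52_P52618 0.070 and Csf2rb2 0.065 (not called), Csf2ra 0.19 and Il3ra 0.12 (called), and differences of 0.79, 0.32, -0.79 and -0.31.

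Leaving out each replicate in turn gave Kit -0.015 to 0.095, below 0 without replicate 3, and A_52_P664853 -0.31 to -0.20, lost without replicate 2 or 3. The calls over all probes were 1349 to 4580 higher and 845 to 5045 lower, and those over pathway genes 12 to 23 and 4 to 23, the lowest without replicate 2 (1349 and 845, 12 and 4), followed by 1684 and 1237, 13 and 8 without replicate 3. The other 6 receptor probes kept their calls. With the median over a gene's probes in place of the brightest, the median of the pathway genes was -0.03, but 26 of 49 genes with several probes moved by over 1 SD, among them Jak1 (0.01), Jak2 (0.30), Bcl2l1 (0.01), Bcl2l11 (0.18) and Ywhaz (-0.52). The called genes Ptpn11 (-0.36), Ets1 (-0.11) and Spred1 (-0.17) turned their sign. The ratios of 8 receptor probes rest on 4 arrays with signals well above background, so their number limits what was detectable.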
